A study of Mus musculus with 3 samples.

Results

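The miRNAs described here came from the mouse hairpins Mir210, Mir146a and Mir146b, 3 of 633 distinct miRNA genes that could be named. They are miR-210, known for its induction by low oxygen, and miR-146a and miR-146b, known for their part in inflammatory signalling. A read was taken as a member if its insert of 18 to 25 nt matched either arm of these hairpins exactly or with 1 to 2 untemplated 3' bases, which are bases at the end of the RNA that the genome does not encode. HL-1 cells, which derive from mouse heart muscle, had received siRNA (9 µl at 20 µM) by transfection, and their small RNA was sequenced 48 h later. The groups compared were the library labelled siSrf1 and the library labelled siSrf2, 1 library each, by title both treated with siRNA to Srf, the gene of the muscle transcription factor serum response factor. A sample titled siNon was not analysed here. The siRNA entry of the samples disagrees with the titles. It gives Srf si1 for the sample titled siNon, Srf si2 for the library labelled siSrf1 and siNon for the library labelled siSrf2, so neither library is treated as a control and every direction below refers to titles. All values come from 1 cell line and carry no replicate check.

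When oxygen is low, the transcription factor HIF-1 drives miR-210, which lowers ISCU, a scaffold for iron-sulphur clusters, and with it mitochondrial respiration. In the heart miR-210 is known as a miRNA of ischaemia. NF-kB drives miR-146a, which lowers the adaptor proteins TRAF6 and IRAK1 and so dampens signalling from Toll-like and interleukin-1 receptors. miR-146b comes from another gene, has the same seed as miR-146a, and is known to act on the same adaptors. A seed is the stretch at bases 2 to 8 by which a miRNA finds its targets. Of each hairpin, 1 arm (5p or 3p) usually becomes the working miRNA and the other is degraded.

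The mature sequences of all 6 arms are shown because the counting, the seeds and the separation of miR-146a from miR-146b depend on them. They are RefSeq sequences (GRCm38.p6), written 5' to 3' with the seed in capitals:
miR-210-3p: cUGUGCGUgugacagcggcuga
miR-210-5p: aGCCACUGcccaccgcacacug
miR-146a-5p: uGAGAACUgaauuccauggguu
miR-146a-3p: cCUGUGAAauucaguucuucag
miR-146b-5p: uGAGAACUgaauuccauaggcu
miR-146b-3p: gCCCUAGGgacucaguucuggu

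miR-146a-5p and miR-146b-5p shared their seed with each other, while no other measured miRNA had the seed of miR-210-3p. The pair differed at 2 of 22 bases, with 17 identical bases at the 5' end. The differences, counted from 1 at the 5' end with miR-146a-5p first, were G18A and U21C, in capitals here:
miR-146a-5p: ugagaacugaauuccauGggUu
miR-146b-5p: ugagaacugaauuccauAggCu
Counted reads therefore hold at least 1 of the bases that tell the pair apart, and no counted insert of any member was shared with another miRNA. miR-210-3p had a GC content of 63.6%, against 40.9% in both miR-146 5p arms.

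The hairpins lie at separate places of the NCBIM37 genome. Mir210 lies at chr7:148407283-148407392 on the minus strand, overlaps no annotated gene, and has Rassf7 as its nearest gene at 2726 nt. Mir146a lies at chr11:43187899-43187963 on the minus strand, likewise between genes, with Pttg1 as the nearest protein-coding gene among those listed beside it, 45789 nt away. Mir146b lies at chr19:46417252-46417360 on the plus strand, in an intron of Tmem180, which runs on the same strand. The 22 nt of miR-146b-5p matched the genome at 3 places, and those of the other 5 arms at 1 place each. The extra copies of miR-146b-5p stand 516 and 233 nt before the copy of the hairpin on chromosome 19, at chr19:46416764-46416785 and chr19:46417047-46417068. Both equal the hairpin for 26 bases from the start of the mature sequence, and neither has the miR-146b-3p sequence within 100 nt. Reads of miR-146b-5p are therefore those of a sequence that the assembly holds at 3 neighbouring places, and they cannot be assigned to 1 of them.

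The libraries held 14911499 reads (siSrf1) and 14518157 reads (siSrf2), of which 59.4% and 57.2% gave an insert of 15 nt or longer. Reads assigned to named miRNAs numbered 5158530 in the library labelled siSrf1 and 4463490 in the library labelled siSrf2. Levels are given as reads per 1000000 miRNA reads (RPM), with exact 95% Poisson intervals that cover counting error only. The log2 ratio is siSrf1 minus siSrf2, and a miRNA was measured if it had at least 50 reads in both libraries together. The size rule asked for a difference of 2-fold or more with a ratio interval that leaves out 0. Of 246 measured miRNAs, 0 (0%) met the rule with a higher level in the library labelled siSrf1 and 65 (26.4%) with a higher level in the library labelled siSrf2, and the median log2 ratio was -0.42. On this scale 200 miRNAs lay below 0 and 46 above. The imbalance depends on the scaling, since TMM factors gave a median of 0.07, median-of-ratios factors 0.00 and a total without miR-1a-3p -0.03. Among heart muscle miRNAs, all 5 of 5 were measured, and together they held 656344 and 547609 RPM in the libraries labelled siSrf1 and siSrf2. Of that sum miR-1a-3p held 640758 and 530678 RPM (log2 ratio 0.27), while miR-499-5p lay at 0.00, miR-208b-3p at -0.27, miR-208a-5p at -0.86 and miR-133a-3p, past the size rule, at -1.06. Marker miRNAs of blood cells, 3 of 6 measured, summed to 86.3 and 97.5 RPM, and miR-155 among them had no counted read. Those of epithelium, 0 of 6 measured, summed to 7.37 and 6.95, and the endothelial miR-126a had 304 and 276. Those of fibroblasts and smooth muscle, 4 of 4 measured, summed to 25327 and 24796 RPM, with log2 ratios of 0.40 (miR-214-3p), 0.26 (miR-199a-3p), -0.35 (miR-143-3p) and -2.27 (miR-145a-5p, past the size rule). Each marker was given by its most-read arm, also in the sums. Other arms differed for some hairpins, at -0.28 (miR-133a-5p), -0.09 (miR-208a-3p), -0.07 (miR-145a-3p) and -1.11 (miR-1a-5p, past the size rule). Others lay near their partner, as miR-143-5p at -0.40 and miR-199a-5p at 0.22. The ratios above are therefore those of single arms, not of whole marker genes. The part of other cell types in the members' levels was not tested.

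miR-210-3p was the arm of Mir210 that was read, and scaled to the miRNA total its level was nearly alike in both libraries. It had 455 reads in the library labelled siSrf1 and 355 reads in the library labelled siSrf2. That is 88.2 RPM (80.3 to 96.7) against 79.5 (71.5 to 88.3), intervals that overlap. The ratio was 1.11-fold, with a log2 ratio of 0.15 and an interval of -0.05 to 0.35 that includes 0, so on this scale no difference was detectable at this depth. With TMM factors, which move every log2 ratio up by 0.49, it was 0.64, so whether the level was alike or higher in the library labelled siSrf1 depends on the scaling. It ranked 90th of the 246 measured miRNAs by level in the library labelled siSrf1 and 106th in the library labelled siSrf2. The value stood on the upper side of the table: 224 measured miRNAs had a ratio at or below that of miR-210-3p and 22 had a higher one, and it lay 0.57 above the median of all. The distance to the median does not depend on the scaling, while the ratio itself does.

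The other arm, miR-210-5p, was rare. It had 5 reads in the library labelled siSrf1 and 16 in the library labelled siSrf2, or 0.969 RPM (0.315 to 2.26) against 3.58 (2.05 to 5.82). Its log2 ratio of -1.79 has an interval of -3.69 to -0.37, but with under 50 reads it was not among the measured miRNAs. The interval includes 0 under some scalings, as with TMM factors (-1.30, interval -3.20 to 0.12), so these few reads give no firm direction of the level. The 5p arm held 1.09% of miR-210 reads (exact Clopper-Pearson interval 0.354 to 2.52) in the library labelled siSrf1, against 4.31% (2.48 to 6.91) in the library labelled siSrf2. These intervals overlap slightly, but overlap alone does not decide whether the shares differ, and their difference was not tested. Over both libraries the less-read arm of Mir210 held 2.53%, against a median of 1.1% over 148 hairpins with at least 200 reads. Other adapter searches, chosen after the data were seen, put the intervals of the 5p share apart. With 1 mismatch allowed the shares were 1.02% (0.376 to 2.21) and 3.93% (2.38 to 6.06). By the first 20 nt of the read they were 1.02% (0.412 to 2.1) and 3.71% (2.34 to 5.56), still from few 5p reads.

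miR-146b-5p was the more abundant of the miR-146 pair. Scaled to the miRNA total, with the adapter searched without mismatch, its level was lower in the library labelled siSrf1. miR-146b-5p had 267 reads in the library labelled siSrf1 and 394 reads in the library labelled siSrf2. That is 51.8 RPM (45.7 to 58.4) against 88.3 (79.8 to 97.4), and these intervals do not overlap. The log2 ratio was -0.77 (-1.0 to -0.54), which is a 1.7-fold higher level in the library labelled siSrf2 and not past the size rule. The ratio was below 0 under every scaling run, all on counts from that adapter search, and nearest to 0 with TMM factors at -0.27. Other scalings were not joined to other adapter searches, so its sign under both together was not tested. Among all measured miRNAs 87 lay at or below the ratio of -0.77 and 159 above it, and it lay 0.35 below the median. The 3p arm, miR-146b-3p, had 0 reads in both libraries, which allows up to 0.582 and 0.672 RPM in the libraries labelled siSrf1 and siSrf2, the level of 3 reads. Of the 148 hairpins with at least 200 reads, 16 had 0 reads from the less-read arm, Mir146b among them.

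miR-146a-5p was the rarest of the main arms. It had 36 reads in each library, or 6.98 RPM (4.89 to 9.66) in the library labelled siSrf1, against 8.07 (5.65 to 11.2) in the library labelled siSrf2. The log2 ratio of -0.21 has an interval from -0.92 to 0.50, so that a change of nearly 2-fold toward siSrf2 lies within counting error. Its sign depends on the scaling, since median-of-ratios factors gave 0.21 and TMM factors 0.29. miR-146a-3p had 0 reads in both libraries, with the same limits as miR-146b-3p. Together 0 of the 3 main arms were past the size rule in either direction, against 26.4% of all measured miRNAs. Among the 116 miRNAs with at least 500 reads, which leave out miR-146a-5p, 19 were past it.

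**Figure D1:**
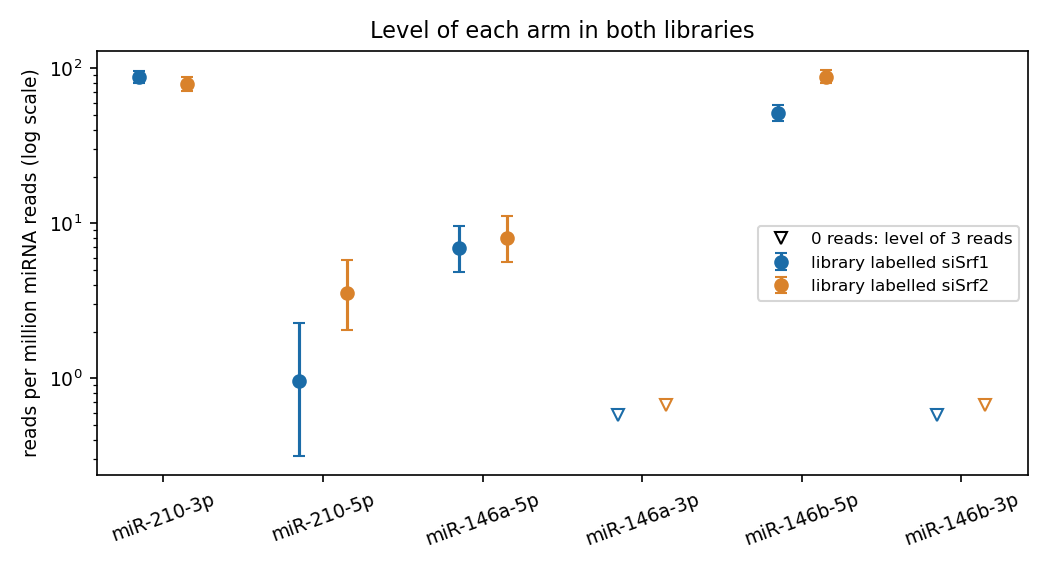
Level of each arm of the 3 hairpins, in RPM on a log scale, in the library labelled siSrf1 (blue) and the library labelled siSrf2 (orange). Points are 1 library each, bars are exact 95% Poisson intervals, and open triangles mark arms with 0 reads at the level of 3 reads. The intervals of miR-146b-5p are apart, and those of miR-210-3p and miR-146a-5p overlap.

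**Figure D2:**
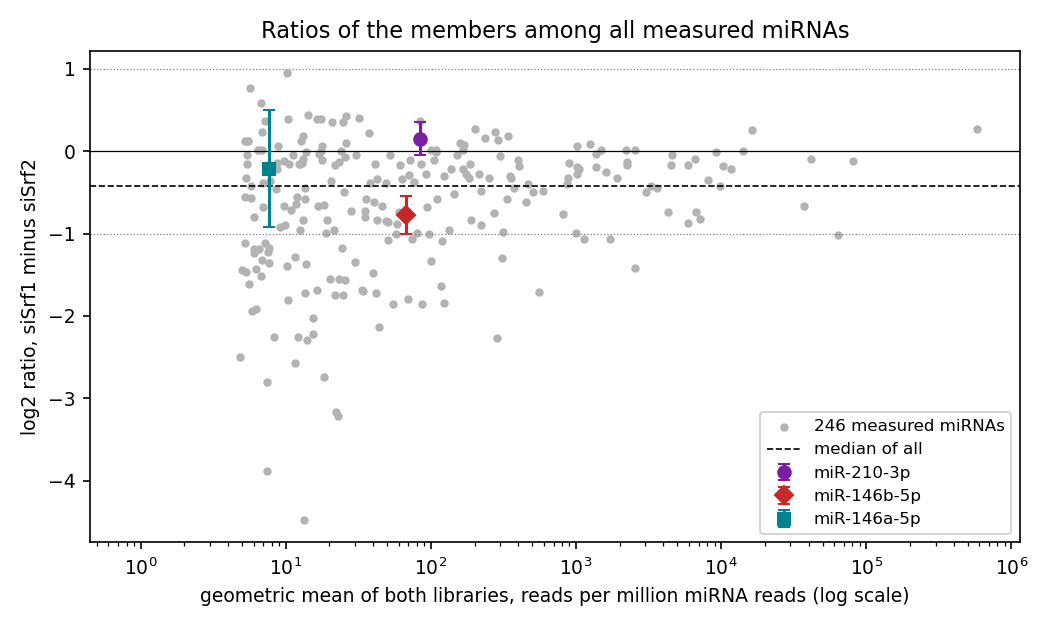
The log2 ratio (siSrf1 minus siSrf2) of 246 measured miRNAs (grey) against their mean level in RPM (log scale), with miR-210-3p, miR-146b-5p and miR-146a-5p and their exact 95% intervals. The dashed line is the median of all, -0.42, and dotted lines mark 2-fold. miR-210-3p lies above the median, miR-146b-5p below it, and the interval of miR-146a-5p spans it.

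The members were also set against each other, since a difference between ratios within the same libraries does not depend on any scaling. The log2 ratio of miR-210-3p was 0.92 above that of miR-146b-5p (exact conditional 95% interval 0.61 to 1.23). These intervals, like the others, cover counting error only. miR-146a-5p lay 0.56 above miR-146b-5p with an interval of -0.19 to 1.31, and miR-210-3p lay 0.36 above miR-146a-5p with an interval of -0.38 to 1.10, and both of these include 0. Of the 3 differences, that between miR-210-3p and miR-146b-5p is the single one whose interval leaves out 0. Within the miR-146 pair, miR-146a-5p made up 11.9% of 303 reads (8.46 to 16.1) in the library labelled siSrf1, against 8.37% of 430 reads (5.93 to 11.4) in the library labelled siSrf2. The intervals overlap, and in both libraries miR-146b-5p was the main form by 7.42-fold and 10.9-fold.

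The level of miR-146b-5p, more than that of the other members, depended on how the sequencing adapter was recognised. Every read was 36 nt long, and a read of a miRNA runs on into the 3' adapter, whose first 8 nt were searched without mismatch. Allowing 1 mismatch, a search chosen after the data were seen, raised miR-146b-5p to 490 reads in the library labelled siSrf1 and 659 in the library labelled siSrf2. The reads found only in that way were 45.5% and 40.2% of the total, the highest share among 156 miRNAs with at least 200 reads in both libraries together, whose medians were 11% and 10.2%. For miR-210-3p the share was 21.7% and 23.7%, with 581 and 465 reads in all. Few reads of miR-146a-5p were gained, 38 and 37 in all. Counting every read that begins with the first 20 nt of the arm, with no adapter needed, gave 708 and 898 reads of miR-146b-5p, 677 and 571 of miR-210-3p, and 39 and 34 of miR-146a-5p. The order of levels thus differed with the search in the library labelled siSrf1, where miR-146b-5p had 0.587 times the reads of miR-210-3p under the strict search, 0.843 times with 1 mismatch and 1.05 times without the adapter. In the library labelled siSrf2 miR-146b-5p was ahead in each, at 1.11, 1.42 and 1.57 times.

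For miR-146b-5p and miR-210-3p the log2 ratio kept its sign under these searches and was smaller in size. That of miR-146b-5p was -0.62 with 1 mismatch and -0.53 without the adapter, and that of miR-210-3p was 0.13 and 0.05. For miR-146a-5p it was -0.15 with 1 mismatch and 0.00 without the adapter. The median of all measured miRNAs was -0.39 and -0.38 in these searches. Both miR-210-3p and miR-146b-5p thus lay nearer to it than under the strict search. The difference between miR-210-3p and miR-146b-5p was 0.75 (0.50 to 1.0) with 1 mismatch and 0.59 (0.37 to 0.81) without the adapter, both intervals above 0. The excess of miR-146b-5p over miR-146a-5p grew to 12.9-fold and 17.8-fold with 1 mismatch, and to 18.2-fold and 26.4-fold without the adapter, in the libraries labelled siSrf1 and siSrf2. The strict search thus gave the smallest excess of the 3 searches.

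**Figure D3:**
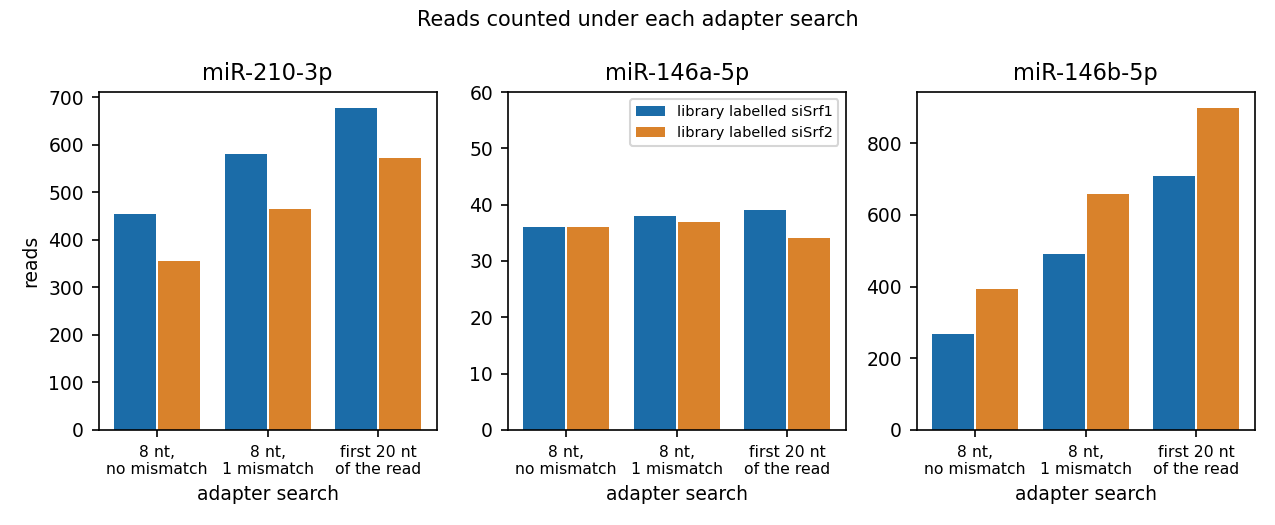
Reads of miR-210-3p, miR-146a-5p and miR-146b-5p (a panel each, with its own y axis from 0) in the library labelled siSrf1 (blue) and the library labelled siSrf2 (orange) under 3 ways of finding the adapter. miR-146b-5p gained the most, to 708 and 898 reads from 267 and 394, and miR-146a-5p stayed between 34 and 39.

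Reads of the members also differ in where they end, which sets their length. The most frequent inserts are shown because miR-146b-5p was read mainly as a longer form than the RefSeq entry. They are written as DNA with the seed in capitals:
miR-210-3p, 22 nt: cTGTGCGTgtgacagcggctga
miR-146a-5p, 22 nt: tGAGAACTgaattccatgggtt
miR-146a-5p, 23 nt: tGAGAACTgaattccatgggtta
miR-146b-5p, 24 nt: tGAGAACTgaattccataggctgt
miR-146b-5p, 22 nt: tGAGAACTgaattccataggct

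The 24 nt form of miR-146b-5p had 185 reads in the library labelled siSrf1 and 285 in the library labelled siSrf2, against 30 and 39 for the 22 nt form, and both extra bases are encoded in the genome. The last templated base lay 24 nt from the start in 71.2% (65.3 to 76.5) of reads in the library labelled siSrf1, against 75.1% (70.6 to 79.3) in the library labelled siSrf2. The libraries thus agreed within counting error. Of 156 miRNAs with at least 200 reads, 81 had their most frequent insert at 22 nt, 11 at 24 nt and 1 at a greater length. With 1 adapter mismatch allowed the share at 24 nt was 69.6% and 75.1%, so the long form was the main form under both searches.

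miR-210-3p ended at 22 nt in 82% of reads (78.1 to 85.4) in the library labelled siSrf1, against 83.1% (78.8 to 86.8) in the library labelled siSrf2. Its main insert had 322 and 254 reads. It began at the RefSeq start in 95.4% and 94.6%, and 1 base earlier in 3.3% and 4.79%, a start that moves the seed by a base. miR-146b-5p held to its start in 99.3% and 99.2%. miR-146a-5p ended at 22 nt in 63.9% (46.2 to 79.2) and 61.1% (43.5 to 76.9) and at 23 nt in 25% and 25%, from 36 reads in each library. The position of the main ends was therefore alike in the libraries for each member, within wide intervals for miR-146a-5p. Among the rarer ends, miR-210-3p ended at 20 nt in 12 reads (2.64%, 1.37 to 4.56) in the library labelled siSrf1. In the library labelled siSrf2 it did so in 2 reads (0.563%, 0.0683 to 2.02).

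**Figure D4:**
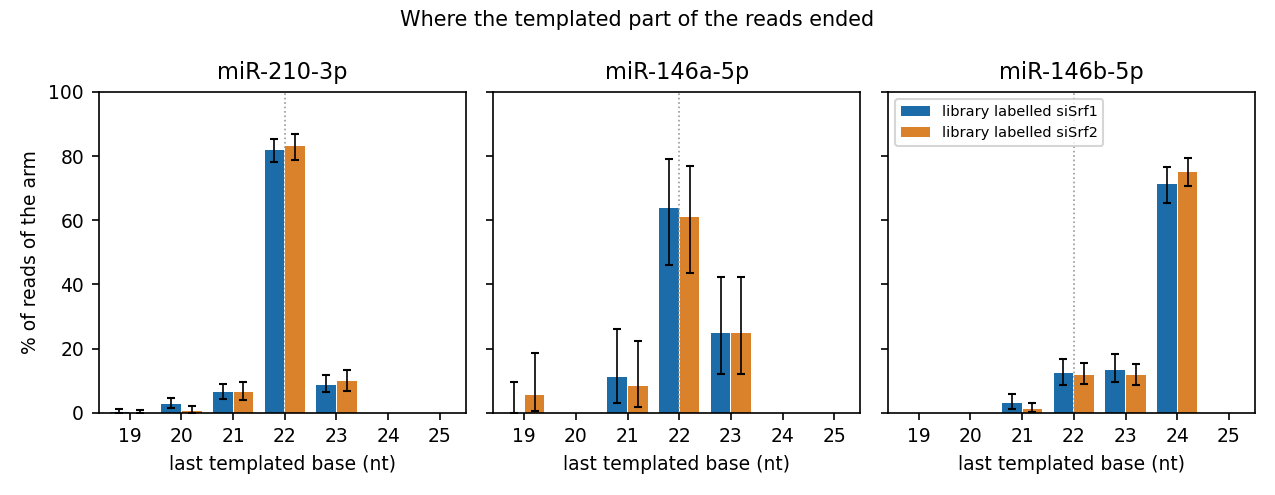
Share of reads whose last templated base lay 19 to 25 nt from the start of the mature sequence, for miR-210-3p, miR-146a-5p and miR-146b-5p, in the library labelled siSrf1 (blue) and the library labelled siSrf2 (orange). Bars on the columns are exact Clopper-Pearson 95% intervals, and the dotted line marks the RefSeq end at 22 nt. miR-210-3p and miR-146a-5p peak at 22 nt and miR-146b-5p at 24 nt, in both libraries.

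Untemplated 3' bases, which enzymes add to miRNAs after cutting, were found on 18% (14.6 to 21.9) of miR-210-3p reads in the library labelled siSrf1, against 18.6% (14.7 to 23) in the library labelled siSrf2. On miR-146b-5p the shares were 9.36% (6.15 to 13.5) and 8.63% (6.05 to 11.9). Inserts end at 25 nt, so the 24 nt form of miR-146b-5p can show 1 such base and the 22 nt form of miR-210-3p can show 2. With at most 1 base counted, the shares were 13.1% (10 to 16.6) and 13.2% (9.77 to 17.3) on miR-210-3p, and 7.63% (4.72 to 11.5) and 7.46% (5.05 to 10.5) on miR-146b-5p. For miR-146a-5p the shares were 22.2% (10.1 to 39.2) and 38.9% (23.1 to 56.5), intervals too wide to tell apart. Each share differed between the libraries by less than its intervals, and over both libraries miR-210-3p (18.3%) lay above and miR-146b-5p (8.93%) below the median of 15.4% for 156 miRNAs with at least 200 reads. A single untemplated T was on 5.71% and 6.48% of miR-210-3p reads and on 0.749% and 0.761% of miR-146b-5p reads, while a single untemplated A was on 5.71% and 4.79%, and on 4.12% and 5.84%. A base that equals the next genome base cannot be seen as untemplated.

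Since the miR-146 pair differs at base 18, reads with a single change there were counted in all reads that begin with the arm. On miR-146b-5p base 18 was changed in 8 reads in the library labelled siSrf1 and 4 in the library labelled siSrf2, against a median of 2 per base in each. The 8 reads were the most at any of these bases in the library labelled siSrf1. In the library labelled siSrf2 the most was 11, at bases 7 and 14. The change A18G, which makes base 18 of miR-146b-5p that of miR-146a-5p, was found in 0 reads in either library, against 701 and 890 reads without change, which allows a share of up to 0.428% and 0.337%. Changes at any of bases 1 to 18 together were found in 46 and 63 reads of miR-146b-5p. The opposite change in miR-146a-5p, G18A, had 0 reads in the library labelled siSrf1 and 1 in the library labelled siSrf2.

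The miRNAs whose log2 ratio was nearest to each member, among those with at least 500 reads, were taken over the same 2 libraries. For miR-210-3p they were miR-126a-3p (0.14, 1566 and 1230 reads) and miR-92b-3p (0.16, 1286 and 996 reads). For miR-146b-5p they were miR-322-3p (-0.76, 3198 and 4694 reads) and miR-130a-3p (-0.75, 1079 and 1574 reads). For miR-146a-5p they were miR-92a-3p (-0.21, 5059 and 5058 reads) and miR-23b-5p (-0.21, 793 and 796 reads). With 2 libraries a shared ratio is a description only.

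Other miRNAs linked to the same pathways were given by their most-read arm. Of 14 other hypoxia-linked miRNAs, 12 were measured. Of these 0 were past the size rule in either direction, against 26.4% of all measured miRNAs. All 12 had over 500 reads, and among the 116 miRNAs with at least 500 reads 19 were past the rule. On the miRNA-total scale 3 lay above 0 and 9 below, with a median of -0.18, against 46 above, 200 below and -0.42 over all measured miRNAs. The most abundant were miR-199a-3p (0.26, 92901 and 66929 reads), miR-103-3p (-0.18), miR-107-3p (-0.74), and miR-21a-5p (-0.09), known for its rise in the stressed heart. miR-107 differs from miR-103 by few bases, so its reads are uncertain. Of 10 other NF-kB-linked miRNAs, 9 were measured and 0 were past the rule, against the same 26.4%. Some of them, such as miR-212-5p (39 and 54 reads), had under 500 reads, so the 19 of 116 is not a like background for this list. Here 1 lay above 0 and 8 below with a median of -0.33, against the same 46, 200 and -0.42. The most abundant were let-7i-5p (-0.42), miR-21a-5p, miR-221-3p (-0.05) and miR-125b-5p (-0.33). miR-21a and miR-155 are in both lists. miR-155, an inflammatory miRNA of immune cells, had no counted read, which allows up to 3 in each library, while miR-146a-5p and miR-146b-5p had 36 to 394. Reads of hairpins without a name were not counted, so this 0 does not by itself show absence. With TMM factors the medians were 0.32 and 0.16, against 0.07 over all, so the sign of each list's median depends on the scaling. Both medians lay above that of all measured miRNAs on either scale, a distance that was not tested.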

How the data were processed

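HL-1 small RNA had been prepared with a kit from Illumina and sequenced on a Genome Analyzer, per the labels' protocols, and samples were grouped by title. The authors deposited, for each of 2 libraries, a count of reads for every distinct 36 nt sequence, not normalized and with the adapter still present. Any aligner, build or read filter was not given in the sources used here.

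The first 8 nt of the adapter were searched without mismatch, or a match of 4 nt or more where the read stops, and inserts under 15 nt or with N were left out. Inserts of 18 to 25 nt were matched to GENCODE vM1 hairpins of NCBIM37 with 10 nt flanks, 749 of 1577 named by RefSeq symbol (528) or mature sequence (221). Reads of hairpins without a name are not in the miRNA total. An arm was defined by its most frequent insert, with starts within 2 nt and ends within 3 nt, up to 2 untemplated bases, and ties shared equally. RefSeq sequences were matched for all 6 arms of the 3 hairpins.

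Log2 ratios used a pseudocount of 0.5 reads and an exact binomial 95% interval, shares a Clopper-Pearson interval, and differences of ratios an exact conditional odds ratio (Python 3.11.15, numpy 2.4.6, scipy 1.17.1). Reads carry no molecular identifiers, so intervals cover counting error only, and with 1 library per group no p-value was computed. Alternatives were TMM (edgeR 4.0.16) and median-of-ratios factors (DESeq2 1.42.0, R 4.3.3), other totals, matching, insert lengths, adapter searches, minimums and pseudocount. Every arm with a read is named, with the 2 nearest miRNAs per hairpin and up to 4 per list. The members and lists were chosen with earlier results of these data known. The steps were tested on simulated data, whose reads carried the adapter without mismatch. Templated forms were drawn only below 24 nt, so the main form of miR-146b-5p was not drawn as such. Loss of reads to adapter mismatches was not part of that test.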

Additional observations from a re-analysis of the deposited data

Results flagged for a closer look

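Reads that begin with the first 20 nt of an arm but did not enter its count, because no adapter match gave an accepted insert, stood above the limit of 3 reads that a count of 0 allows. For miR-146b-5p there were 443 such reads in the library labelled siSrf1 and 507 in the library labelled siSrf2, which are 62.6% (58.9 to 66.1) and 56.5% (53.1 to 59.7) of all reads with that start. For miR-210-3p there were 243 and 235, which are 35.9% (32.3 to 39.6) and 41.2% (37.1 to 45.3). For miR-210-5p in the library labelled siSrf2 there were 6, while miR-146a-5p had 3 and 2.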

How the results depend on the processing

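No paired analysis was possible because the groups hold a single library each. Of the values recomputed, 48 moved outside their counting interval (numbers of miRNAs: by over 1.5-fold) and 300 did not. miR-210-3p lay above 0 and miR-146b-5p below 0 under each alternative run. miR-146a-5p changed side with 5 of them, within its interval, and lay at 0.00 with the first 20 nt. No alternative joined another adapter search to another scaling, so the sign of miR-146b-5p under both together was not tested. Scaling moved every log2 ratio alike, by 0.49 (TMM), 0.42 (median-of-ratios), 0.39 (total without miR-1a-3p) and 0.29 (total without the 5 most abundant miRNAs). In that order miR-210-3p lay at 0.64, 0.57, 0.53 and 0.44 and miR-146b-5p at -0.27, -0.35, -0.38 and -0.47, with 3, 3, 2 and 2 miRNAs past the size rule on the siSrf1 side. On the siSrf2 side 36, 40 and 42 were past it under the first 3 of these. With a minimum of 500 reads 19 of 116 were past it, a lower share than the 65 of 246 with the main minimum. On the siSrf1 side 1 was past it with exact matches, with inserts of 20 to 24 nt, with a minimum of 10 reads, with sequences seen once left out and with the total of all inserts.

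In the shares, siSrf1 then siSrf2, miR-146a-5p among the pair was 7.2% and 5.32% (1 adapter mismatch), 6.65% and 4.97% (12 nt, 2 mismatches) and 5.22% and 3.65% (first 20 nt, where miR-146b-5p had a log2 ratio of -0.53), and 5.76% in siSrf2 with exact matches. The 3' end share of miR-210-3p was 77.5% and 76.8%, then 75% and 75.4% under the first 2 searches, and 89.8% and 92% with exact matches, which put miR-146b-5p at 76.9% and 79.7%. Untemplated bases on miR-210-3p were 22.5% and 23.9%, then 24.5% and 25.2%, and with at most 1 such base 13.1% and 13.2%, with 9.68% on miR-146a-5p in siSrf1. Leaving out sequences seen once gave 5' end shares of 100% for miR-146a-5p (siSrf2) and miR-146b-5p (siSrf1), and untemplated shares of 5.88% (miR-146b-5p) and 0% (miR-210-5p) in siSrf2. Where construction does not show it, the cause was not tested. The searches with mismatches or without adapter were chosen after seeing the data. Depth limits miR-146a-5p and miR-210-5p most.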

Other observations

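Reads of miR-146b-5p gained with 1 adapter mismatch were unevenly spread over insert lengths. At 24 nt they were 42.9% and 39.7% of reads in the libraries labelled siSrf1 and siSrf2, at 23 nt 72.9% and 56.2%, and at 22 nt 10.8% and 9.09%. Over inserts of all kinds the shares were 22.8% and 21.3% at 24 nt, 23.7% and 22.8% at 23 nt, and 15.4% and 16.5% at 22 nt. The mismatch lay most often at base 7 of the adapter, in 153 of 490 reads of miR-146b-5p (31.2%) in the library labelled siSrf1 and 169 of 659 (25.6%) in the library labelled siSrf2. For miR-210-3p it lay there in 72 of 581 reads (12.4%) and 64 of 465 (13.8%). The cause was not tested.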
